A study of Mus musculus with 24 samples.

Results

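Potassium channel genes were followed in oligodendrocytes (OLs) and in whole spinal cord of mice before and after a contusive spinal cord injury (SCI). Members were the protein-coding genes with a symbol that starts with Kcn, goes on with lower-case letters and then a digit, and that had at least 10 counts summed over the 24 libraries. The rule found 93 matching genes and kept 88 of the 17167 genes that reached the same count, and it used no measured difference between groups. The 5 matching genes below that count were Kcna7, Kcne2 and Kcnj1, which had no count at all, Kcnmb3 with 1 count and Kcna10 with 2 counts.

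All groups came from C57Bl/6 OL-Ribotag mice, including the uninjured naive controls. In these mice a tamoxifen-induced Cre switches on a hemagglutinin (HA) tag on the ribosomal protein RPL22 in OLs, so that tagged ribosomes can be pulled down with an anti-HA antibody. Female mice, 10 to 12 weeks old per the labels (the methods of the study give a younger range), had a moderate contusion at T9 with the IH impactor at 50 kdyn, and cord was taken at 2, 10 or 42 days post-injury (dpi) and from naive mice. Per the methods of the study, naive and dpi 42 cords were collected on 1 day, so naive mice were older at collection than dpi 2 and dpi 10 mice, and in those comparisons age and injury cannot be told apart. Each of 3 tissue pools per time point held cord of 2 mice and gave 1 library of the input before pull-down (total RNA) and 1 of mRNA on tagged ribosomes (OL RNA, the OL translatome), so that 8 groups of 3 libraries resulted. The Cre driver is also active in Schwann cells. P-values measure the spread between pools.

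Potassium channels let potassium ions cross the cell membrane down their gradient, and they set the resting potential and end action potentials. Voltage-gated (Kv) channels, calcium-activated channels, inward rectifiers (Kir) and 2-pore-domain (K2P) leak channels each form from pore subunits, and auxiliary subunits change their gating or traffic. In white matter, axons hold Kv1 channels in the juxtaparanode beneath the myelin, while OLs and astrocytes carry the inward rectifier Kir4.1 (Kcnj10), which takes up potassium released by firing axons.

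The 24 libraries held 25840127 to 32987841 counts each, with a median of 29062636. Levels are given as CPM, counts scaled to the library size and by TMM, and a floor of 3 counts was worth 0.0840 to 0.127 CPM per library. For the dpi 42 libraries numbered 19 and 20 the title and the description name opposite kinds of RNA, and the description, which the column name repeats, was used. The summed level of 8 mature OL markers was 125486 to 169078 CPM in naive OL RNA and 23317 to 28993 CPM in naive total RNA, and at dpi 42 it was 111201 to 145649 CPM in OL RNA and 21971 to 24308 CPM in total RNA, libraries 19 and 20 included. Several OL libraries stood apart in 7 astrocyte markers, none of which was at 0. The summed astrocyte level was 1474, 1317 and 8591 CPM in naive OL pools 1 to 3, 2570, 954 and 7734 CPM at dpi 2, 2053, 6289 and 2540 CPM at dpi 10, and 12260, 10276 and 1933 CPM in dpi 42 libraries 20, 22 and 24, against 4888 to 7951 CPM in total RNA. Microglia and macrophage markers (8 genes, none at 0) went from 10.4 to 16.5 CPM in naive OL RNA to 70.8 to 91.3 CPM at dpi 2, 218 to 251 CPM at dpi 10 and 139 to 233 CPM at dpi 42. In the same order they were 181 to 215, 1286 to 1522, 3482 to 4726 and 1991 to 3018 CPM in total RNA. Schwann cell markers (6 genes, of which Sox10 is shared with OLs and Gdnf was at 0 in naive OL RNA) were at 1107 to 1514 CPM in naive OL RNA and at 1910 to 2405 CPM at dpi 42. In bulk RNA of this kind, fewer cells of a type and less RNA per cell cannot be told apart.

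Most channel genes were readily detected in cord but sat low on OL ribosomes. In naive total RNA 72 of 88 members had a mean above 1 CPM, and in naive OL RNA 49 did. In naive OL RNA 16 members had at most 3 counts in every library, 12 of them at 0 in all 3. On a per-length scale (CPM per kb of exon), which allows genes to be compared, naive OL RNA was led by Kcnj10 at 551 ± 96.6 CPM per kb (SD, n = 3), then Kcna6 at 104 ± 16.8, Kcnk13 at 83.1 ± 18.5, Kcnk1 at 20.2 ± 18.5 and Kcna1 at 16.9 ± 0.924 CPM per kb. The mean ± SD ranges of Kcna6 and Kcnk13 overlapped, as did those of Kcnk1 and Kcna1. In naive total RNA Kcnj10 had the highest level at 225 ± 13.4 CPM per kb, and Kcnab2 was at 121 ± 8.61 and Kcna1 at 55.8 ± 2.93 CPM per kb. Summed over the 88 members, the per-length level was 896 ± 123 in naive OL RNA and 1239 ± 33.5 in naive total RNA. Of these sums Kcnj10 alone made up 551 in OL RNA and 225 in total RNA. The sum in OL RNA is therefore no measure of the family as a whole, and the fall of Kcnj10 after injury is given below. At dpi 2 the sum was 562 ± 38.1 in OL RNA and 556 ± 64.6 in total RNA, at dpi 10 641 ± 45.7 and 653 ± 18.4, and at dpi 42 599 ± 55.0 and 809 ± 119.

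The first question was which channel transcripts OLs of the uninjured cord translate above the cord as a whole. OL enrichment is the log2 ratio of OL to total RNA, called past 0.5 in either direction with an adjusted p (q) under 0.05. In naive mice 7 of 88 members (7.95%) were higher in OL RNA and 62 (70.5%) were lower, beside 21.7% higher and 28.6% lower among all genes tested. The median log2 OL enrichment was -3.65 over the members and -0.27 over all genes. The 7 higher members were Kcna6, Kcnk13, Kcnj10, Kcnk5, Kcnq3, Kcnu1 and Kcnj2. At dpi 2 5 members were higher and 58 lower (20.5% and 27.2% of all genes), at dpi 10 6 and 60 (21.2% and 27.3%), and at dpi 42 5 and 56 (21.1% and 27%). These 4 comparisons share no library, and Kcna6, Kcnj10, Kcnk13, Kcnk5 and Kcnu1 were called higher in all 4. In turn 47 members were called lower in all 4 and 81 were called higher in none. The share of all genes called in all 4 was not counted, so these counts have no share to be read against.

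**Figure D1:**
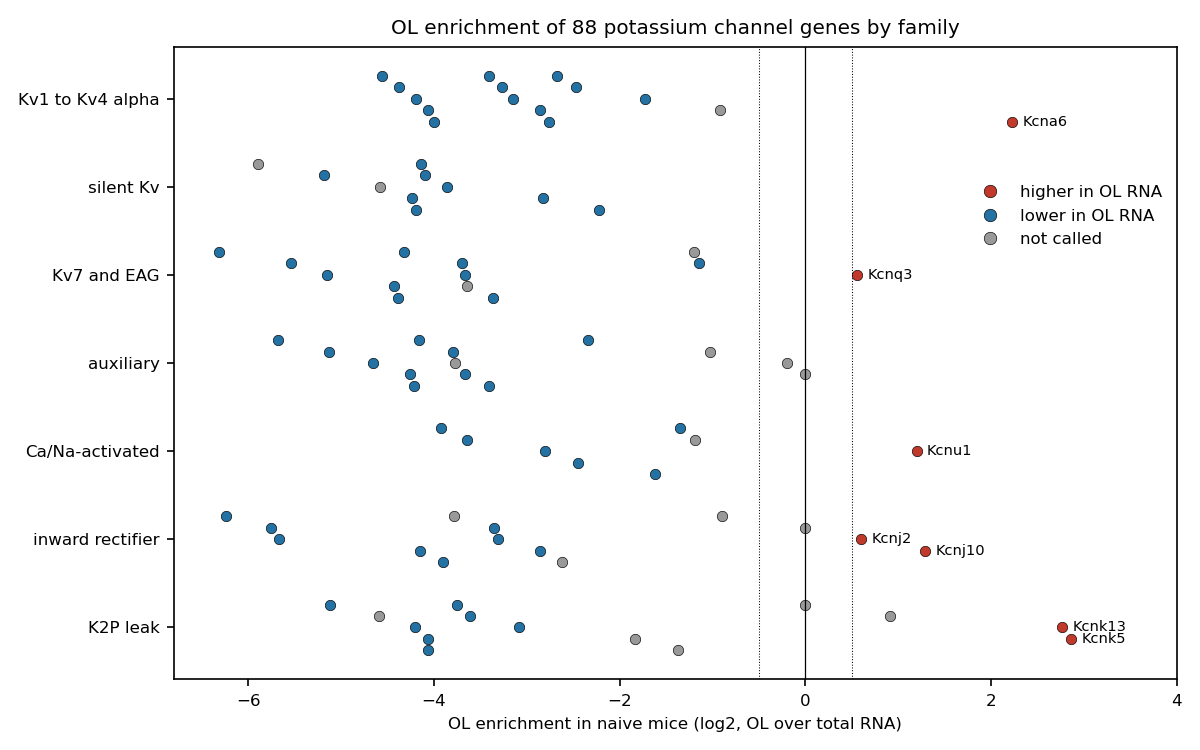
Log2 OL enrichment in naive mice (x axis, OL over total RNA, n = 3 libraries per group) for each of the 88 members, in rows by family; dotted lines mark 0.5 in each direction. The 7 members called higher are named, the 62 called lower lie to the left, and fitted values of members at very low counts depend on the prior count of the fit.

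Kcnj10 (ENSMUSG00000044708, GRCm38 chr1:172341210-172374085, plus strand) encodes Kir4.1, the inward rectifier of astrocytes and OLs. Its level in naive OL RNA was 2628, 2729 and 3579 CPM, against 1268, 1252 and 1135 CPM in naive total RNA. All OL libraries lay above all total libraries, with a log2 OL enrichment of 1.29 ± 0.12 (SE, q = 1.25e-08) in naive mice and 1.34, 1.41 and 1.09 at dpi 2, 10 and 42. After injury it was at 2075, 1819 and 1699 CPM in OL RNA at dpi 2, at 2100, 2266 and 2006 CPM at dpi 10, and at 1688, 2019 and 1784 CPM at dpi 42. Every injured OL library was below every naive one, yet the log2 changes of -0.68 (q = 0.00016), -0.49 and -0.70 were within the 2-fold limit set for a call. In total RNA the log2 changes of Kcnj10 were of like size, at -0.72, -0.61 and -0.51. The highest Kcnj10 level among the naive OL libraries was in pool 3, which was also the highest in astrocyte markers.

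Kcna6 (ENSMUSG00000038077, GRCm38 chr6:126708329-126740674, minus strand) encodes Kv1.6, a delayed rectifier of the Shaker group. It was at 663, 690 and 505 CPM in naive OL RNA and at 137, 136 and 124 CPM in naive total RNA, a log2 OL enrichment of 2.22 ± 0.13 (q = 9.48e-12). Pool 3, the pool high in astrocyte markers, had the lowest Kcna6 of the naive OL libraries. OL enrichment was 2.06, 2.29 and 1.88 at dpi 2, 10 and 42, and the groups did not overlap at any time. In OL RNA Kcna6 went to 323, 296 and 318 CPM at dpi 2 (log2 change -0.99, q = 3.68e-06, just inside the limit for a call), 507, 474 and 454 CPM at dpi 10 and 310, 370 and 451 CPM at dpi 42. Without the OL libraries high in astrocyte markers, a choice made after the data were seen, its log2 change at dpi 2 was -1.19 and passed the limit. Exons of Kcna6 share 39.6% of their bases with the antisense gene Gm26673, whose reads may not be separated from it, since the strand setting of the counting is not given in the sources used here.

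The leak channels Kcnk13 and Kcnk5 had the highest log2 OL enrichment of all members in naive mice. Kcnk13 (ENSMUSG00000045404, GRCm38 chr12:99964499-100062682, plus strand) encodes THIK-1, a 2-pore channel best known from microglia. It was at 298, 285 and 193 CPM in naive OL RNA and at 43.8, 33.4 and 36.6 CPM in naive total RNA, a log2 OL enrichment of 2.77 ± 0.18 (q = 3.62e-11). Microglia markers were lower in OL than in total RNA, and the part of microglia in the Kcnk13 level was not tested. At dpi 2, 10 and 42 the OL enrichment of Kcnk13 was 2.45, 2.46 and 2.36, and its log2 change in OL RNA was -0.50, -0.75 and -0.68, with no call. Kcnk5 (ENSMUSG00000023243, GRCm38 chr14:20140057-20181809, minus strand) encodes TASK-2, an acid-sensitive leak channel. It was at 20.7, 21.3 and 10.9 CPM in naive OL RNA and at 3.31, 2.19 and 1.74 CPM in naive total RNA, a log2 OL enrichment of 2.86 ± 0.44 (q = 9.63e-06). After injury its OL level was 12.1 to 21.1 CPM at dpi 2, 15.9 to 18.9 CPM at dpi 10 and 13.4 to 19.3 CPM at dpi 42, with log2 changes between -0.09 and 0.01. In total RNA Kcnk5 rose to 6.16, 9.36 and 3.08 CPM at dpi 2 (log2 change 1.36, q = 0.0153) and to 4.06, 5.28 and 7.14 CPM at dpi 10 (1.18, q = 0.0373). The rise at dpi 2 was lost without total library 2 of dpi 2 (log2 change 0.94) or without naive total library 2 (1.29) or 3 (1.17), and that at dpi 10 without naive total library 2 (1.12) or 3 (1.00) or dpi 10 total library 2 or 3.

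The other enriched members were nearer to the limit. Kcnq3 encodes Kv7.3, a subunit of the slow M-current. It was at 204, 177 and 155 CPM in naive OL RNA and at 125, 113 and 126 CPM in naive total RNA, a log2 OL enrichment of 0.56 ± 0.15 (q = 0.00267) in naive mice, 0.65 at dpi 10, and 0.34 and 0.39 at dpi 2 and 42, which were not called. The naive call was lost with DESeq2 size factors, with library sizes alone and with DESeq2, and the dpi 10 call with library sizes alone. Kcnu1 encodes Slo3, a channel known from sperm. It was at 8.91, 8.04 and 4.93 CPM in naive OL RNA and at 2.56, 3.55 and 3.42 CPM in naive total RNA, with a log2 OL enrichment of 1.20, 1.09, 1.82 and 2.02 at naive, dpi 2, dpi 10 and dpi 42. The dpi 2 call was lost without OL library 1 or total library 2 of that time, and with library sizes alone the naive and dpi 2 calls of Kcnu1 (0.67 and 0.51) and the dpi 2 call of Kcnk5 (0.91) were lost. Kcnj2 encodes Kir2.1, a strong inward rectifier, and was the only member called higher at one time and lower at others. It was at 20.4, 18.7 and 12.8 CPM in naive OL RNA and at 12.3, 10.9 and 10.9 CPM in naive total RNA, and its log2 OL enrichment of 0.60 (q = 0.0391) in naive mice was lost without any 1 of the 3 naive total libraries (0.67, 0.58 and 0.57) or naive OL library 1 (0.62), and also with DESeq2 size factors (0.54), DESeq2 (0.54) and library sizes alone (0.08).

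**Figure D2:**
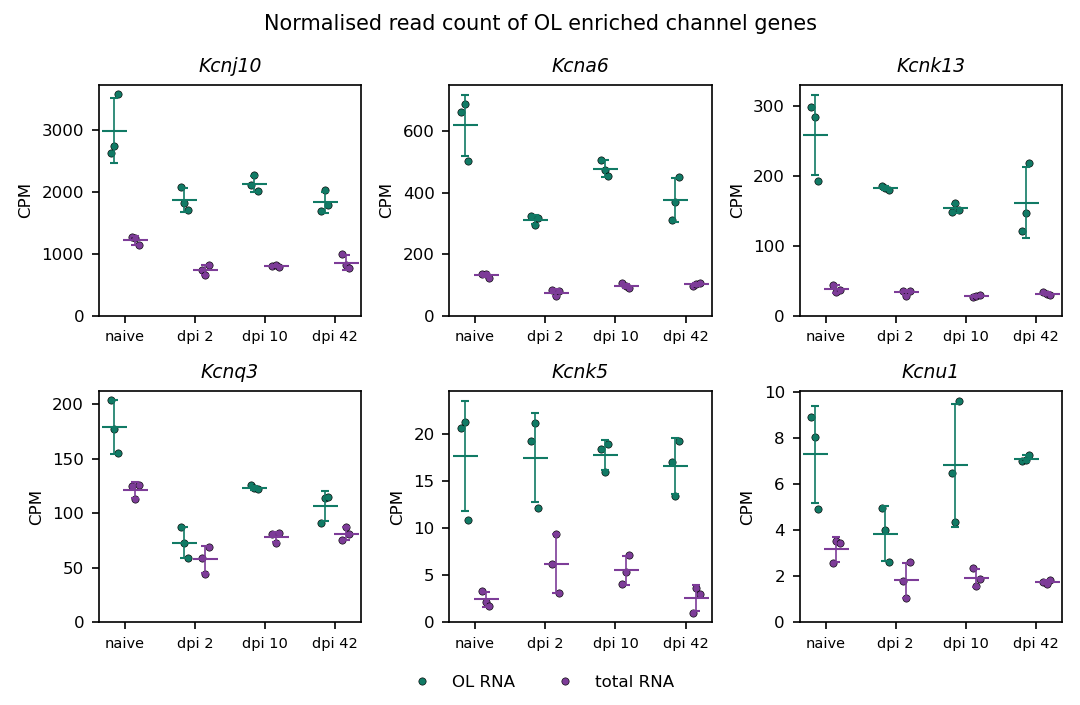
Normalised read count (CPM, linear axes from 0) of members enriched in OL RNA, by time point; points are the 3 libraries of each group, with the mean as a bar and the SD as whiskers, green for OL and purple for total RNA. Kcnj10, Kcna6 and Kcnk13 keep OL libraries above total libraries at each of the 4 times.

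The 250 bases before the RefSeq start site are shown (GRCm38.p6, 5′ to 3′ on the gene's strand) for Kcna6, Kcnj10, Kcnk13 and Kcnk5. These genes carry the OL-enriched pattern and are 4 of the 5 members called higher at all 4 times. The other, Kcnu1, had no window of this length. CG dinucleotides are in capitals.
Kcna6, chr6:126740675-126740924, minus strand: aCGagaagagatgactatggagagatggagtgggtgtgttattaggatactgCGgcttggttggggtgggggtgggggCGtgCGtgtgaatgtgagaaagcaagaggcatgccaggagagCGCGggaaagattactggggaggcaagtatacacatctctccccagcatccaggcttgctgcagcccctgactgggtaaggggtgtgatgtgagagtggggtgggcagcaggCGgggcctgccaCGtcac
Kcnj10, chr1:172340960-172341209, plus strand: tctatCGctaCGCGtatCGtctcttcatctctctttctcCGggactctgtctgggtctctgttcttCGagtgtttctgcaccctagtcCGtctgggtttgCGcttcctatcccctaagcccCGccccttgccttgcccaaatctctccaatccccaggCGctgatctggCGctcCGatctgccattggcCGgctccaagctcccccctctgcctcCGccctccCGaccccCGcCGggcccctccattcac
Kcnk13, chr12:99964249-99964498, plus strand: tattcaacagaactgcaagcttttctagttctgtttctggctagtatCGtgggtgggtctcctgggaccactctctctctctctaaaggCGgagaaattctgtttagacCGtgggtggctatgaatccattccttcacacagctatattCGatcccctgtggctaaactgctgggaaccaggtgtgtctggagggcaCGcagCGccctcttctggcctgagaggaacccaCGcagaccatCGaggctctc
Kcnk5, chr14:20181783-20182032, minus strand: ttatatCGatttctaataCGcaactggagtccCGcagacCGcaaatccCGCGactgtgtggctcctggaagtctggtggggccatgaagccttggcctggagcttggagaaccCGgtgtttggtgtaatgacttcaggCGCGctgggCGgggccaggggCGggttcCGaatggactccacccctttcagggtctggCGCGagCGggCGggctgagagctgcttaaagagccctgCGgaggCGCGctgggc
They hold 8, 17, 8 and 19 CG dinucleotides in the order given, where the median over all 32851 windows of this length was 6 and that over the 87 windows of the 63 members with one was 8. The letters ACAAAG, a core of the motif bound by SOX factors, stand on either strand in none of the 4, in 10 of the 87 member windows and in 16.5% of all windows. TATAAA stands in none of the 4, in 3 member windows and in 12.4% of all windows. These counts describe letters in these windows only.

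Channel genes lower in OL RNA spanned every family. Of the pore subunits Kv1 to Kv4, which carry the delayed rectifier and A-type currents of neurons, 13 of 15 were lower in naive mice and 1 higher, with a median log2 OL enrichment of -3.14. The silent Kv subunits, which act only with other pore subunits, had 8 of 10 lower (median -4.17), the Kv7 and EAG group 10 of 13 (-3.70) and the auxiliary subunits 10 of 14 (-3.78). Of the calcium- and sodium-activated channels 6 of 8 were lower (-2.04), of the inward rectifiers 8 of 14 (-3.33) and of the K2P channels 7 of 14 (-3.35). Kcnab1, a beta subunit of Kv1 channels, was at 8.95, 7.53 and 9.79 CPM against 159 to 167 CPM (-4.21 ± 0.21), and the like subunit Kcnab2 had -3.66 ± 0.21. Kcnh2 (erg1), which repolarises excitable cells, was at 13.2 to 15.6 CPM against 145 to 151 CPM (-3.37 ± 0.18). Kcna2 (Kv1.2) and Kcnk3 (TASK-1) had -3.14 and -3.75. Summed neuron markers (8 genes, none at 0) were likewise lower in OL RNA, at 466 to 612 CPM against 9906 to 10610 CPM in naive mice.

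Some of the members named whatever their values were also low. The log2 OL enrichment in naive mice was -2.80 for Kcnma1, the pore subunit of the BK channel, -2.76 for Kcna3 (Kv1.3; -2.94 and no call with the tissue pool as a block), -3.36 for Kcnj11 (Kir6.2) and -3.62 for Kcnk2 (TREK-1). Low counts set the size of some. Kcnj8 (Kir6.1), a channel of pericytes and vascular muscle, had 3 counts over the 3 naive OL libraries and 316 over the naive total libraries, which is 83.3-fold lower in OL RNA per CPM (95% exact interval 28.2 to 406, counting error only).

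Kcna1 (Kv1.1), a Kv1 subunit of juxtaparanodes, had the opposite sign to Kcna6. The gene ENSMUSG00000047976, GRCm38 chr6:126640397-126646384, minus strand lies on the same chromosome. Its level was 84.3, 82.0 and 75.7 CPM in naive OL RNA and 251, 273 and 277 CPM in naive total RNA, a log2 OL enrichment of -1.73 ± 0.20 (q = 1.38e-07). Per length it was the fifth of the 88 members in naive OL RNA, although it was called lower there than in the cord.

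The next question was which channel transcripts changed on OL ribosomes after injury. A change was called past 1 on the log2 scale with q under 0.05, and the 3 times share the naive libraries. At dpi 2 5 members were higher and 12 lower (10.2% and 6.85% of all genes), at dpi 10 5 and 4 (6.82% and 1.26%), and at dpi 42 9 and 6 (8.54% and 4.08%). The median log2 change over the members was -0.40, -0.26 and -0.21, and 0 over all genes at each time. With library sizes alone 5 members were higher and 6 lower at dpi 2 and 5 and 1 at dpi 10. Without OL library 3 of dpi 2 the split was 4 higher and 25 lower at dpi 2. At dpi 42 it was 9 and 14 without OL library 24. In astrocyte markers library 3 of dpi 2 was the highest OL library of its group (7734 CPM). Library 24 was the lowest of its group (1933 CPM). With an offset for gene length and GC content the split was 5 and 8 at dpi 10 and 7 and 10 at dpi 42.

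Kcnmb4, an auxiliary subunit that slows BK channels in neurons, is at chr10:116417861-116473878, minus strand (GRCm38). It was at 1.85, 2.67 and 1.80 CPM in naive OL RNA. It rose to 5.52, 9.64 and 7.96 CPM at dpi 2 (log2 change 1.87 ± 0.27, q = 1.28e-05) and to 6.75, 4.78 and 5.13 CPM at dpi 42 (1.40 ± 0.27, q = 0.000429), and was at 3.77, 2.93 and 4.57 CPM at dpi 10 (0.84, not called). No injured library overlapped a naive one. In total RNA it was at 9.70 to 11.8 CPM in naive mice and its log2 changes were 0.21, -0.40 and 0.14, with no call. Its exons share 10.7% and 20.8% of their bases with the antisense genes Kcnmb4os1 and Kcnmb4os2. The pore subunit Kcnma1 had log2 changes in OL RNA of -0.97, 0.05 and -0.38, with no call.

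Kcnn4 (KCa3.1), a calcium-activated channel known from microglia, lymphocytes and red cells (GRCm38 chr7:24370263-24386690, plus strand), was near the floor in naive OL RNA, at 0.168, 0 and 0.268 CPM. It rose to 4.65, 12.4 and 1.61 CPM at dpi 2 (log2 change 5.36, q = 2.18e-05), was at 2.87, 1.79 and 1.07 CPM at dpi 10 (3.66, q = 0.00242), and at 1.68, 2.2 and 3.56 CPM at dpi 42 (4.03, q = 0.000497). All injured OL libraries lay above all naive ones. In total RNA Kcnn4 rose too, from 0.164 to 0.451 CPM in naive mice by log2 changes of 4.07, 3.67 and 2.87. Kcnk6 (TWIK-2), known from macrophages, rose in OL RNA from 0.191 to 0.672 CPM to 0.851 to 2.04 CPM at dpi 2, 0.951 to 2.51 CPM at dpi 10 and 0.839 to 2.91 CPM at dpi 42, with log2 changes of 1.92, 2.45 and 2.41. The dpi 2 call was lost without OL library 1 of dpi 2. In total RNA Kcnk6 rose from 1.81 to 4.09 CPM to 16.1 to 20.5, 20.9 to 26.8 and 15.01 to 18.9 CPM (log2 changes 2.53, 2.98 and 2.44), and it was lower in OL than in total RNA at each time. Kcnj15 (Kir4.2) had no count in any naive library and rose in total RNA to 8.29, 4.49 and 2.84 CPM at dpi 2, at least 164-fold above a floor of 3 counts over the naive group. In OL RNA it was at 0.718, 0.0405 and 0 CPM at dpi 2, at least 6.35-fold, a call lost without library 1, and at 0.194, 0.419 and 1.10 CPM at dpi 10, at least 14.1-fold. Microglia and macrophage markers rose in both kinds of RNA over the same times (values above, 7, 8 and 8 of 8 called in OL RNA), and their part in these changes was not tested. With only the groups compared in the fit, the OL calls of Kcnk6 and Kcnj15 were lost.

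At dpi 42 more members were higher on OL ribosomes, most of them at low levels. Kcnj8 went from 0, 0.0423 and 0.0765 CPM in naive OL RNA to 4.33, 4.14 and 2.19 CPM at dpi 42, with 291 against 3 counts (88.2-fold, 95% exact interval 29.9 to 430, q = 0.000258). At dpi 10 it was at 0.0388, 1.29 and 1.18 CPM (20.7-fold, 95% exact interval 6.77 to 103), a call lost without naive OL library 1 or 2 or with only the groups compared, and in total RNA it stayed between 3.10 and 5.76 CPM with no call. Pericyte and smooth muscle markers (4 genes, none at 0) summed to 4.15 to 15.8 CPM in naive OL RNA. At dpi 2, 10 and 42 the sum was 62.3 to 373, 21.3 to 39.8 and 33.1 to 76.3 CPM. Tagln was its largest part after injury, at 0.677 to 3.52 CPM in naive OL RNA and 41.6 to 358 CPM at dpi 2. From naive to dpi 42 Tagln reached 15.8 to 53.1 CPM, while Rgs5 went from 2.58 to 2.83 CPM to 2.80 to 4.74 CPM. Pdgfrb went from 0.846 to 9.41 CPM to 10.0 to 14.2 CPM, and Acta2 from 0 to 0.168 CPM to 2.78 to 6.22 CPM. The part of these markers in the change of Kcnj8 was not tested. Kcnk2 (TREK-1), a mechanosensitive leak channel, was at 1.18, 1.23 and 4.09 CPM in naive OL RNA and at 8.28, 6.16 and 5.28 CPM at dpi 42 (log2 change 1.59 ± 0.33, q = 0.000828). At 3 of the 4 times, naive and dpi 42 included, Kcnk2 was highest in the OL library highest in astrocyte markers. In naive pool 3 it was 3.34 times its level in the next library. The part of astrocyte markers in its change was not tested. Kcnip2, a calcium-binding partner of Kv4 channels, went from 1.01, 1.31 and 1.76 CPM to 2.38, 4.07 and 4.66 CPM (1.44 ± 0.37, q = 0.00448). Neither group pair overlapped, and both calls were lost when only the groups compared were fitted. Kcns1, a silent Kv subunit, was at 18.9, 15.6 and 0.352 CPM at dpi 42 against 0.966, 1.86 and 2.79 CPM (log2 change 2.63, q = 0.026), so that the groups overlapped. Its 2 high libraries were those high in astrocyte markers, and without the astrocyte-high libraries of both groups the value was -2.01. Without library 20 or 22 of dpi 42, or naive OL library 1 or 2, Kcns1 was not called. Kcnj12 (Kir2.2) was called at 3.92, 3.06 and 3.76 CPM against 0.212 to 1.15 CPM (log2 change 2.14, q = 0.0323), and that call was lost without naive OL library 1 or 2 or any 1 of the 3 dpi 42 OL libraries. Kcnj4 (Kir2.3), with no count in naive OL RNA, was at least 8.48-fold higher, from 28 counts, and was not called without the astrocyte-high libraries.

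Of the members called lower on OL ribosomes, Kcna1 had the highest naive OL level per length. It fell from 75.7 to 84.3 CPM in naive OL RNA to 25.6, 20.01 and 24.7 CPM at dpi 2 (log2 change -1.78 ± 0.20, q = 4.54e-07) and 19.5, 16.3 and 23.05 CPM at dpi 42 (-2.04 ± 0.20, q = 3.22e-07). At dpi 10 it was at 62.9, 43.5 and 44.3 CPM (-0.68, not called), so that the level at dpi 10 lay above those at dpi 2 and 42 in every library. In total RNA it fell to 71.7, 47.2 and 58.8 CPM at dpi 2, 118, 84.9 and 77.7 CPM at dpi 10 and 128, 79.6 and 103 CPM at dpi 42, by 2.17, 1.51 and 1.37 on the log2 scale. Kcnq3 fell at dpi 2 to 87.2, 73.0 and 58.5 CPM (-1.29 ± 0.15, q = 7.57e-07) and was at 122 to 126 CPM at dpi 10 and 90.7 to 114 CPM at dpi 42 (-0.53 and -0.75, not called). With the length and GC offset its dpi 2 change was -0.78 and not called. Kcnj11 fell by 1.13 at dpi 2 and 10, calls lost without OL library 2 of dpi 2 and, at dpi 10, without any 1 of the dpi 10 OL libraries or naive OL library 1 or 2. Neuron markers in OL RNA were at 466 to 612 CPM in naive mice and at 320 to 559, 327 to 420 and 277 to 435 CPM at dpi 2, 10 and 42, and their part in these falls was not tested.

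**Figure D3:**
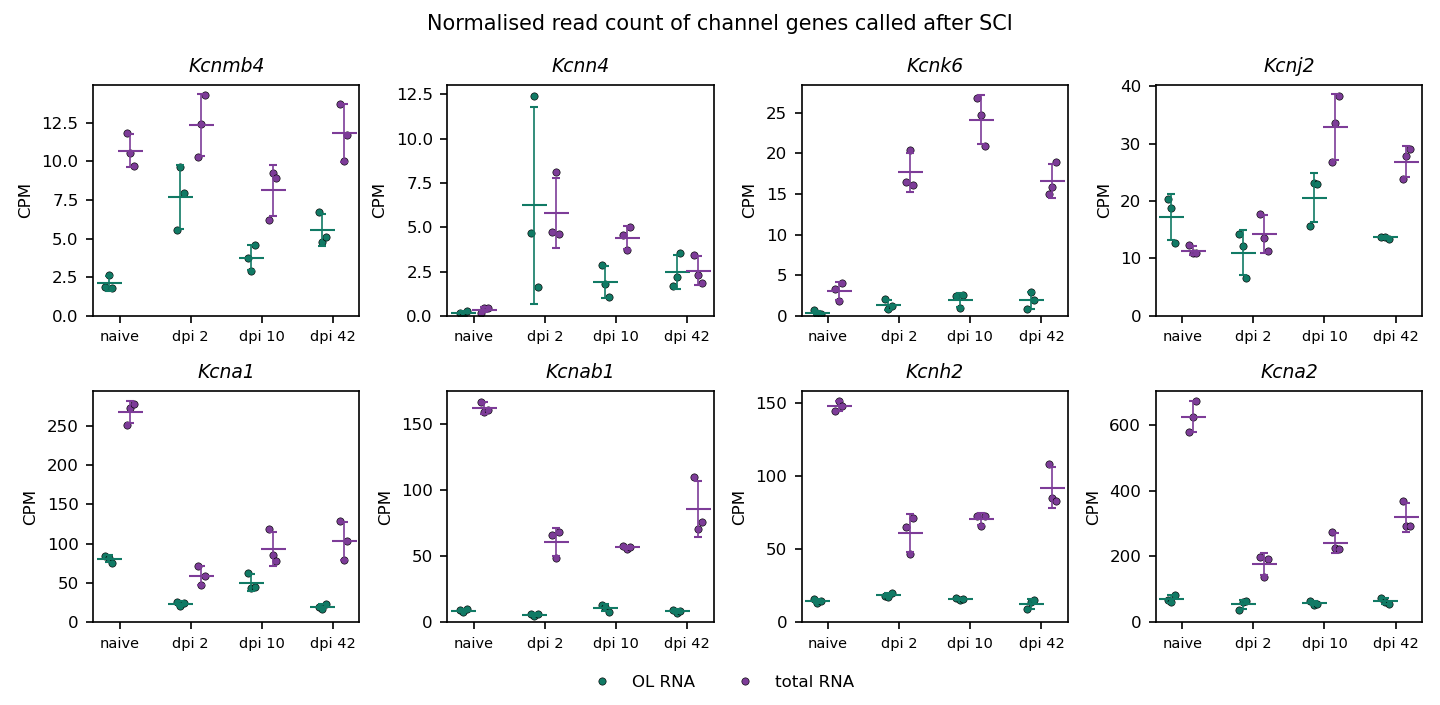
Normalised read count (CPM, linear axes from 0) of 8 members called after SCI, by time point; points are the 3 libraries of each group, with the mean as a bar and the SD as whiskers, green for OL and purple for total RNA. Kcnmb4 rises in OL RNA at dpi 2 and 42 with total RNA level, Kcnn4 rises in both, and Kcna2 and Kcnh2 drop in total RNA with no call in OL RNA.

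In the cord as a whole the change was mostly downward. At dpi 2 4 members were higher in total RNA and 27 lower (10% and 6.33% of all genes), at dpi 10 7 and 15 (9.2% and 3.07%), and at dpi 42 5 and 1 (6.66% and 0.798%). The median log2 change over the members was -0.98, -0.83 and -0.53, beside -0.10, -0.10 and -0.08 over all genes. With library sizes alone 7 were higher and 9 lower at dpi 10, and with the length and GC offset 5 and 2 at dpi 42. Of the Kv1 to Kv4 pore subunits 8 of 15 fell at dpi 2 and none rose. Kcna2 fell from 576, 624 and 671 CPM in naive total RNA to 197, 139 and 193 CPM at dpi 2 (log2 change -1.82 ± 0.18, q = 1.43e-07) and 274, 225 and 222 CPM at dpi 10 (-1.38), and was at 368, 294 and 292 CPM at dpi 42 (-0.97, not called). Kcnab1 fell by 1.41 and 1.51 at dpi 2 and 10, Kcnab2 by 1.36 and 1.25, and Kcnh2 by 1.27 and 1.07, while at dpi 42 all 3 were within the limit at -0.92, -0.63 and -0.68. Kcnma1 fell by 1.22 at dpi 2, a call lost with library sizes alone, as was the dpi 10 call of Kcnh2. Kcna1 was the only member lower at dpi 42. The neuron markers moved alike in total RNA, from 9906 to 10610 CPM in naive mice to 3955 to 5285, 4323 to 4762 and 5230 to 8355 CPM (7, 5 and 1 of 8 called lower), and their part was not tested.

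Members higher in total RNA were few. Kcnj2 rose from 10.9 to 12.3 CPM in naive total RNA to 26.9, 33.6 and 38.4 CPM at dpi 10 (log2 change 1.53 ± 0.24, q = 5.34e-05) and 23.9, 27.8 and 29.0 CPM at dpi 42 (1.24 ± 0.24, q = 0.000792), and was at 11.3 to 17.8 CPM at dpi 2 (0.32). Kcnj13 (Kir7.1) was called at dpi 10 and 42, from 182 and 247 counts against 2 in naive mice, but 49.1% of its exon bases are shared with Gigyf2, and both calls were lost without naive total library 2 or 3, among others. A call in one kind of RNA and not in the other does not show a difference, which is the subject of the next test.

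**Figure D4:**
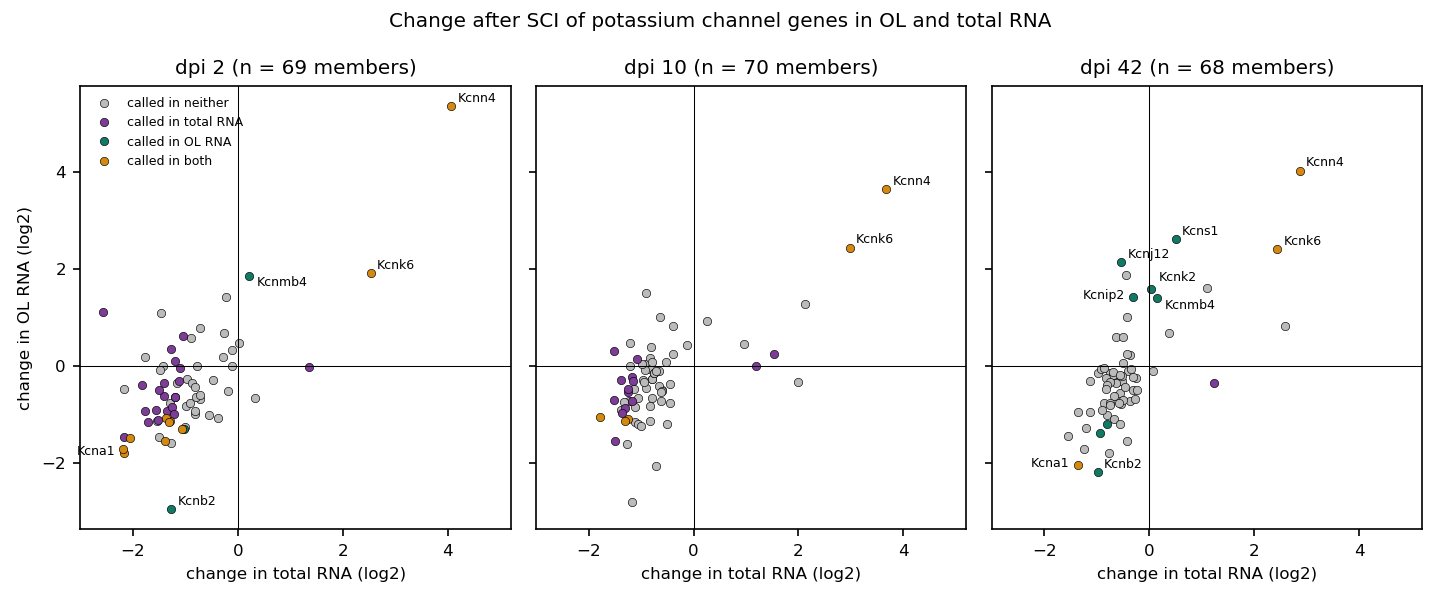
Log2 change after SCI in total RNA (x axis) and OL RNA (y axis) for the members with both groups above the floor of 3 counts (69, 70 and 68 members at dpi 2, 10 and 42), coloured by where a change was called. Most points lie left of 0 at dpi 2 and 10, and Kcnn4 and Kcnk6 lie apart at the upper right at each time.

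Differential OL enrichment, the change in OL RNA minus the change in total RNA, asks whether the OL share of a transcript moved. At dpi 2 6 members were higher and 0 lower (3.35% and 2.92% of all genes), at dpi 10 5 and 1 (1.48% and 1.43%), and at dpi 42 4 and 1 (1.56% and 1.42%). The median over the members was 0.43, 0.46 and 0.15, beside 0.06, 0.08 and 0.04 over all genes. With library sizes alone 5 were higher and 1 lower at dpi 2, and with the length and GC offset 2 and 1 at dpi 10 and at dpi 42. An unadjusted p under 0.05 was found for 12, 16 and 14 members (13.6%, 18.2% and 15.9%), and for 26.1%, 20.1% and 21.4% of all genes. Kcnh2 was higher by 1.64 ± 0.24 at dpi 2 (q = 8.74e-05) and 1.22 ± 0.24 at dpi 10 (q = 0.00263), the latter lost with the length and GC offset. Its OL level was 13.2 to 15.6 CPM in naive mice, 17.3 to 20.1 CPM at dpi 2 and 14.95 to 16.5 CPM at dpi 10, with no call in OL RNA, while total RNA went from 145 to 151 CPM to 46.6 to 71.6 and 65.7 to 73.0 CPM. Kcna2 was higher by 1.44 ± 0.25 at dpi 2 (q = 0.00062) and 1.09 ± 0.25 at dpi 10 (q = 0.00984), with OL levels of 62.0 to 83.7 CPM in naive mice, 37.3 to 64.5 CPM at dpi 2 and 53.5 to 64.8 CPM at dpi 10. Its dpi 10 call was lost without naive OL library 1 or 2 or dpi 10 OL library 1 or 3. Kcnab1 was higher by 1.82 ± 0.26 at dpi 10 (q = 0.000152), with 7.53 to 9.79 CPM in naive OL RNA and 13.1, 11.6 and 7.96 CPM at dpi 10.

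Kcnmb4, called in OL RNA at dpi 2 and 42, was higher by 1.67 ± 0.37 at dpi 2 (q = 0.0041), 1.23 at dpi 10 (q = 0.0468) and 1.26 at dpi 42 (q = 0.041). The dpi 2 call held in every alternative and without any single library, whereas the later calls were lost without naive OL library 1 (1.03 and 1.02) and others, and with the tissue pool as a block (1.25 and 1.27). Kcnd1 (Kv4.1) was higher by 1.51 ± 0.32 at dpi 2 (q = 0.00277), from 3.75 to 4.78 CPM in naive OL RNA to 6.50 to 8.79 CPM. At dpi 42 Kcnk2 and Kcnip2 were higher by 1.56 and 1.74 (q = 0.035 for both), calls lost without naive OL library 1 (1.11 and 1.42) and others, and for Kcnip2 with the tissue pool as a block (1.72). Kcnj2, which rose in total RNA with no call in OL RNA, went the other way, with -1.28 ± 0.34 at dpi 10 (q = 0.0231) and -1.58 ± 0.34 at dpi 42 (q = 0.00633). Its OL level was 12.8 to 20.4 CPM in naive mice, 15.7 to 23.1 CPM at dpi 10 and 13.4 to 13.8 CPM at dpi 42, and its log2 OL enrichment went from 0.60 to -0.68 and -0.98. The dpi 10 call of Kcnj2 was lost without naive total library 2 (-1.25) or 3 (-1.25) or dpi 10 total library 2 or 3, and the dpi 42 call was kept without any single library.

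Some members varied with the astrocyte markers among OL libraries, and the part of these markers in their values was not tested. Kcnj16 (Kir5.1), which pairs with Kir4.1 in astrocytes, was at 15.8, 16.8 and 102 CPM in naive OL pools 1 to 3, 24.5, 9.40 and 101 CPM at dpi 2, 8.08, 36.1 and 17.2 CPM at dpi 10 and 48.3, 56.8 and 11.6 CPM at dpi 42. The high libraries were those high in astrocyte markers each time, and Kcnj16 was called in none of the 4 enrichment comparisons. Kcnk1 (TWIK-1) was at 23.7, 18.8 and 92.8 CPM in naive OL RNA and at 59.1, 65.9 and 15.96 CPM at dpi 42, and Kcnip3 (DREAM), a calcium-binding protein, at 14.4, 11.8 and 94.3 CPM and at 28.6, 46.9 and 10.3 CPM. Kcne1l, an auxiliary subunit singled out after its values were seen, was at 3.53, 3.22 and 33.4 CPM in naive OL RNA. In naive pool 3 Kcne1l was 9.47 times, Kcnip3 6.56 times and Kcnj16 6.05 times its level in the next library. Without the 5 OL libraries above the lowest total library in these markers, a choice made after the data were seen, OL changes were called for 7 members higher and 24 lower at dpi 2, against 5 and 12 with all libraries, for 7 and 6 at dpi 10, against 5 and 4, and for 9 and 12 at dpi 42, against 9 and 6.

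**Figure D5:**
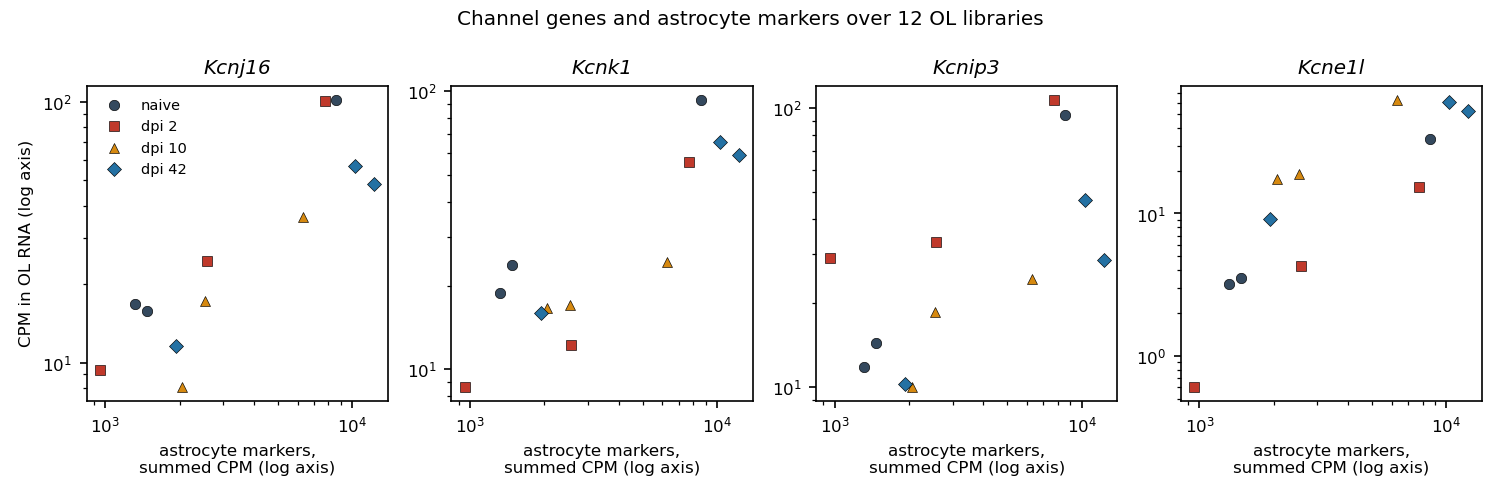
Normalised read count of 4 members (y axis, CPM, log scale) against the summed CPM of 7 astrocyte markers (x axis, log scale) in the 12 OL libraries, with a symbol for each time point. The 5 libraries above 4888 CPM in the markers are at 36.1 CPM or more of Kcnj16 and 24.3 CPM or more of Kcnk1. In these panels they lie above the 7 others, while in the Kcnip3 and Kcne1l panels they overlap with the others.

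Genes that work with these channels were counted by list, to be read beside the shares of all genes called in the same comparisons (21.7% higher and 28.6% lower for naive OL enrichment, 10.2% and 6.85% for OL change at dpi 2, 6.82% and 1.26% at dpi 10, 8.54% and 4.08% at dpi 42). Of 14 tested partners of channels not named Kcn, 1 was higher and 10 lower in OL RNA in naive mice. The higher partner was Hcn2, a hyperpolarisation-activated channel, with a log2 OL enrichment of 2.19, 2.03, 2.71 and 2.07 at the 4 times, while the Kv4 partner Dpp6 had -3.77 in naive mice. In OL RNA 0 partners rose and 4 fell at dpi 2, 0 and 1 at dpi 10, and 1 and 3 at dpi 42. Of 11 juxtaparanode genes 3 were higher and 5 lower in naive mice. Cntn2 (TAG-1), the adhesion molecule found on both the axonal and the glial side, was at 3184, 3342 and 2384 CPM in naive OL RNA and at 454, 414 and 381 CPM in naive total RNA, a log2 OL enrichment of 2.84, whereas its axonal partner Cntnap2 (Caspr2) had -4.76. Lgi3 had 1.29 and Dlg1 1.22. After injury 1 juxtaparanode gene rose and 3 fell in OL RNA at dpi 2, 0 and 1 at dpi 10, and 1 and 2 at dpi 42. In total RNA these counts were 0 and 6, 0 and 2, and 0 and 1. The shares of all genes called higher and lower there were 10% and 6.33%, 9.2% and 3.07%, and 6.66% and 0.798%. Of 11 potassium transporters and sodium pump subunits 4 were higher and 4 lower in naive mice, led by Slc12a2 (NKCC1) at a log2 OL enrichment of 2.68 and Atp1b3 at 2.51. In OL RNA 0 of them rose and 3 fell at dpi 2, and 1 and 1 at each later time.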

How the data were processed

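Gene counts of 24 libraries were the starting point. Per the methods of the study the authors checked reads with FastQC 0.10.1, aligned them with STAR to GRCm38 and counted them per gene with HTSeq 0.10.0, and deposited whole-number counts, not normalized, for 21965 genes. Whether counting used strand is not given in the sources used here. Gene symbols (GENCODE M21) were matched for 21939 genes, 3966 genes had no count, and the 17167 genes with at least 10 counts in all were tested. All per-sample columns were used (0 left out). Each group took its kind of RNA from the description and column name.

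Counts were fitted with edgeR 4.0.16 (quasi-likelihood F test, TMM, 8 group means, R 4.3.3), with Benjamini-Hochberg adjustment over all 17167 genes. The SE is the log2 value divided by the square root of F. A call needed q under 0.05 and a log2 value past 0.5 for OL enrichment or 1 for changes and differential OL enrichment. Ratios with a group of 3 counts or fewer have exact 95% intervals, or a bound against a floor of 3 counts over the group. All intervals and floors cover counting error only. The edgeR fit was also run on simulated counts with known changes. The members and lists were chosen with earlier results of these data known. Named with values are, in each comparison, at most the 6 called members with the smallest p in each direction, and 22 members whatever their values. OL and total libraries of 1 pool come from the same mice. The correlation of their deviations ran from -0.0109 to 0.137 over the 12 pools. The tissue pool as a block was an alternative, as were DESeq2 1.42.0, its size factors, library sizes alone, filterByExpr, every gene with a count, only the groups compared, a length and GC offset, leaving out each library, tissue pool 2 of dpi 2, libraries 19 and 20 or the OL libraries high in astrocyte markers, and the replicate number as a block. Some genes and items are not reported here.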

Additional observations from a re-analysis of the deposited data

Results flagged for a closer look

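Members for which the change in OL RNA differed from that in total RNA, by the test of that difference, are collected here as log2 values. At dpi 2 these were Kcnh2 (1.64), Kcna2 (1.44), Kcnd1 (1.51), Kcnmb4 (1.67), Kcnn1 (1.32) and Kcnj6 (3.69). At dpi 10 they were Kcnab1 (1.82), Kcnh2 (1.22), Kcna2 (1.09), Kcnma1 (1.03) and Kcnmb4 (1.23), with Kcnj2 at -1.28. At dpi 42 they were Kcnj8 (6.15, from 3 counts in naive OL RNA, so that its size depends on the prior count), Kcnip2 (1.74), Kcnk2 (1.56) and Kcnmb4 (1.26), with Kcnj2 at -1.58. Of these 17 calls 8 were kept without any single library. They were Kcnh2 at both times, Kcna2, Kcnd1 and Kcnmb4 at dpi 2, Kcnab1 at dpi 10, and Kcnj2 and Kcnj8 at dpi 42. With the tissue pool as a block 6 of the 17 were no longer called. They were Kcnn1 (1.33) and Kcnj6 (3.45) at dpi 2, Kcnma1 (1.05) and Kcnmb4 (1.25) at dpi 10, and Kcnmb4 (1.27) and Kcnip2 (1.72) at dpi 42. Groups of 3 libraries were not tested for a single library far from the others.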

How the results depend on the processing

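Kcna6, Kcnj10 and Kcnk13 were called higher in OL RNA at all 4 times under every alternative tried. Counts of called members moved by over 1.5 times in these cases. For OL change at dpi 2 (17 called) the count was 11 with library sizes alone, 5 with only the groups compared, 11 without tissue pool 2 of dpi 2, 31 without the OL libraries high in astrocyte markers and 7 with the replicate number as a block. For OL change at dpi 10 (9) it was 2 with only the groups compared and 1 with the number block, and for dpi 42 (15) 6 with only the groups compared. For total change it was 34 with the number block at dpi 10 (22) and 16 with only the groups compared at dpi 42 (6). For differential OL enrichment it was 16 at dpi 2 (6) without the astrocyte-high libraries, 3 at dpi 10 (6) and 3 at dpi 42 (5) with the length and GC offset, and 3 at dpi 42 with the pool block. The causes were not tested. OL change of Kcns1 at dpi 42 turned from 2.63 to -2.01 without the astrocyte-high libraries. Leaving out 1 library gave 63 to 70, 58 to 64, 60 to 64 and 59 to 62 calls of OL enrichment in time order, 13 to 29, 5 to 10 and 10 to 23 of OL change, 23 to 28, 15 to 18 and 5 to 9 of total change, and 4 to 9, 3 to 5 and 2 to 6 of differential OL enrichment. The highest OL counts came without OL library 3 of dpi 2 (29) and library 24 of dpi 42 (23), and the lowest at dpi 10 (5) without naive OL library 2. Replicate numbers of naive and injured mice share only a number, and none could be used at dpi 42. Library sizes alone shifted the median OL enrichment of all genes by -0.57 to -0.50 and that of total change by 0.11 to 0.20. Depth limits the 16 members with at most 3 counts per naive OL library.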

Other observations

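Kcne1l, an auxiliary subunit, was at 16.3, 17.2 and 12.7 CPM in naive total RNA and at 64.2, 74.4 and 62.1 CPM at dpi 10, without overlap, a log2 change of 2.12 that was not called (q = 0.0578, edgeR). The call was made with DESeq2 (2.18) and with only the groups compared (2.27). At dpi 42 it was at 30.7, 36.2 and 32.0 CPM in total RNA (1.10, not called).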
